A study of Arabidopsis thaliana with 14 samples.

Results

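The 10 genes described here encode enzymes that make or break down abscisic acid in Arabidopsis thaliana. They were chosen by locus, and all 10 were present among the 25414 named genes of the table. They comprise ABA1 (AT5G67030), ABA2 (AT1G52340) and AAO3 (AT2G27150), the dioxygenase genes NCED3 (AT3G14440), NCED5 (AT1G30100), NCED6 (AT3G24220) and NCED9 (AT1G78390), and the hydroxylase genes CYP707A1 (AT4G19230), CYP707A2 (AT2G29090) and CYP707A3 (AT5G45340). The RNA came from isolated whole embryos of the Col-0 ecotype, the reference strain, with no mutation or treatment named for any group. The 7 groups were developmental stages, namely zygote, octant, globular, heart, torpedo, bent and mature, and each had 2 biological replicate libraries, making 14 for an atlas of expression over embryo development. The messenger RNA was amplified before library preparation, and the library kit kept no strand information. Values are given as normalised reads, meaning reads per 20000000 in that library, so each is a share of the library and not an amount per embryo.

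Abscisic acid is the plant hormone of seed maturation, dormancy and water stress, and it is made from carotenoids. ABA1 forms epoxycarotenoids in the plastid, the NCED dioxygenases cleave them to xanthoxin in the step usually held to be limiting, ABA2 turns xanthoxin into abscisic aldehyde, and AAO3 oxidises that to the hormone. The CYP707A hydroxylases start its breakdown. In Arabidopsis, NCED3 is best known for the response to drought, NCED6 and NCED9 for synthesis within the seed, CYP707A1 for breakdown during the middle of seed maturation, and CYP707A2 for breakdown in late maturation and germination.

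The libraries held 6078186 to 30803336 reads, so 1 read was worth 0.649 to 3.29 normalised reads, and a count of 0 over the 2 libraries of a stage allowed a level of up to 1.63 to 2.75 (3 reads, counting error only). The summed level of embryo markers, 9 of 9 genes, was between 1518 and 39066 per library, but not every marker was present at every stage. DRNL was under 10 at zygote and octant, and WOX2, WOX8 and DRNL were under 10 at bent. At mature WOX8 and DRNL were at 0 and BBM was under 10. ATML1 (2087 and 1011) supplied most of the sum there (2511 and 1518). The maternal seed coat around the embryo was followed by its markers, which were analysed for 4 of 9 listed genes (BAN, AHA10, MYB5 and INO). Their summed level was 4341 and 2782 in the zygote libraries and 15058 and 15916 at octant. BAN supplied most of it (3369 and 1659 at zygote, 12878 and 13519.5 at octant). AHA10 and MYB5 were also higher at octant, but INO was higher at zygote (672 and 849, against 546 and 646). The sum was lower at globular (388 and 303), at heart (208 and 289) and at torpedo (26.2 and 59.1). It was lowest at bent (19.1 and 6.63) and mature (4.69 and 4.89). The early libraries carried far more seed coat marker RNA than the late ones. Endosperm markers, 9 of 11 listed genes, summed to between 131 and 971 in every library, with IKU2 and MINI3 at or near 0 throughout and EPR1 (721 and 955) making up most of the sum at bent. Levels in whole embryos cannot tell fewer cells of a type apart from less RNA per cell.

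**Figure D1:**
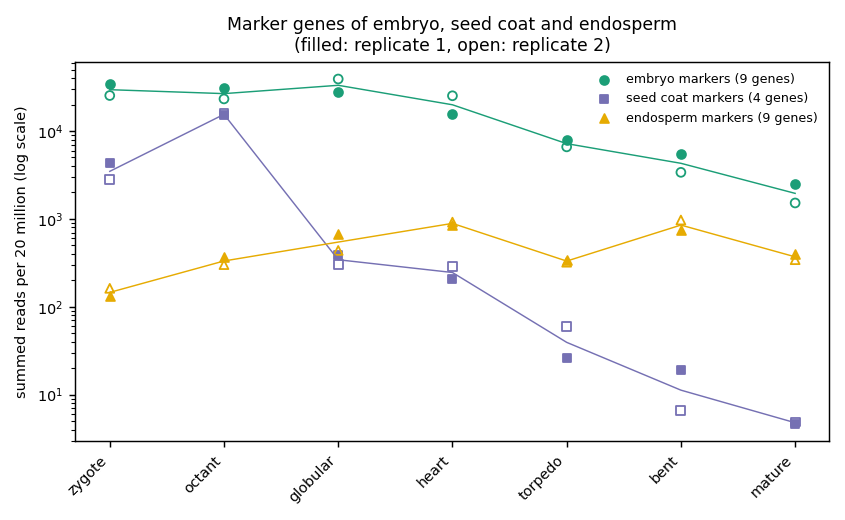
Summed normalised reads (log axis) of embryo, seed coat and endosperm marker genes in each library from zygote to mature, with filled symbols for replicate 1, open symbols for replicate 2 and lines through the stage means. The seed coat sum was highest at octant (15058 and 15916) and lowest at mature (4.69 and 4.89).

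Over the 7 stages, 8 of the 9 tested members differed among stages (limma F test, adjusted p under 0.05), against 97.1% of the 18744 genes tested, so that share says nothing particular about these genes. NCED9 is among the 8, but it met the filter on low values through the bent libraries alone, so its difference was built in. NCED6 did not pass (adjusted p = 0.664), and NCED5 was too low to be tested. The highest stage mean fell at different stages, namely mature for ABA1, AAO3 and CYP707A2, bent for NCED5, NCED9 and CYP707A1, heart for NCED3 and CYP707A3, and octant for ABA2 and NCED6. For NCED5 (9 and 0 reads in the bent libraries) and NCED6 (17 and 2 in the octant ones) these are few reads, and no peak is read from them. The plot of every library shows these profiles.

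Consecutive stages were compared with the later stage set against the earlier one, and mature against zygote. Each count of members is given with the share of all tested genes called in that direction, and then again with each library centred on its own median. At octant against zygote, 2 of 9 tested members rose and 2 fell, where 44.7% of genes rose and 13.1% fell, and after centring 0 rose (21.2% of genes) and 3 fell (29.4%). One of those 3 was NCED9, which had no read at either stage, so that the call came from the shift of the library medians alone. At globular against octant 0 rose and 3 fell, where 7.02% of genes rose and 31.5% fell, and after centring 1 rose (17.3%), CYP707A2 with 5 reads at globular and 2 at octant, and 2 fell (15.2%). At heart against globular 3 rose and 0 fell, where 27.7% of genes rose and 6.9% fell, and after centring 2 rose (9.83%) and 0 fell (17.2%). The counts thus differed between the 2 scalings at each of these early steps.

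At torpedo against heart 0 rose and 1 fell, where 16.3% of genes rose and 9.17% fell, and after centring 0 rose (10.5%) and 4 fell (16.7%). At bent against torpedo 1 rose and 2 fell, where 5.46% of genes rose and 22% fell, and after centring 4 rose (9.93%) and 2 fell (9.28%). The single riser before centring was NCED9, which met the filter on low values through the bent libraries alone, so its calls at bent and at mature against bent were built in and nothing is read from them. At mature against bent 3 rose and 3 fell, where 18.2% of genes rose and 40.1% fell, and after centring 6 rose (43.7%), among them NCED6 with 8 reads at mature and 7 at bent, and 2 fell (21.9%). Across the whole span, mature against zygote, 2 rose and 2 fell, where 29.6% of genes rose and 35.6% fell, and after centring 2 rose (35.3%) and 2 fell (31%). With 9 members tested, no share is read as particular to these genes. The median log2 change of all tested genes was 0.92, -0.63, 0.59, 0.19, -0.54 and -0.57 at the 6 consecutive steps in order and -0.16 over the whole span. Of the 24 changes called in single members, the built-in ones of NCED9 included, 0 turned their direction under any of the 23 alternative settings tried.

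**Figure D2:**
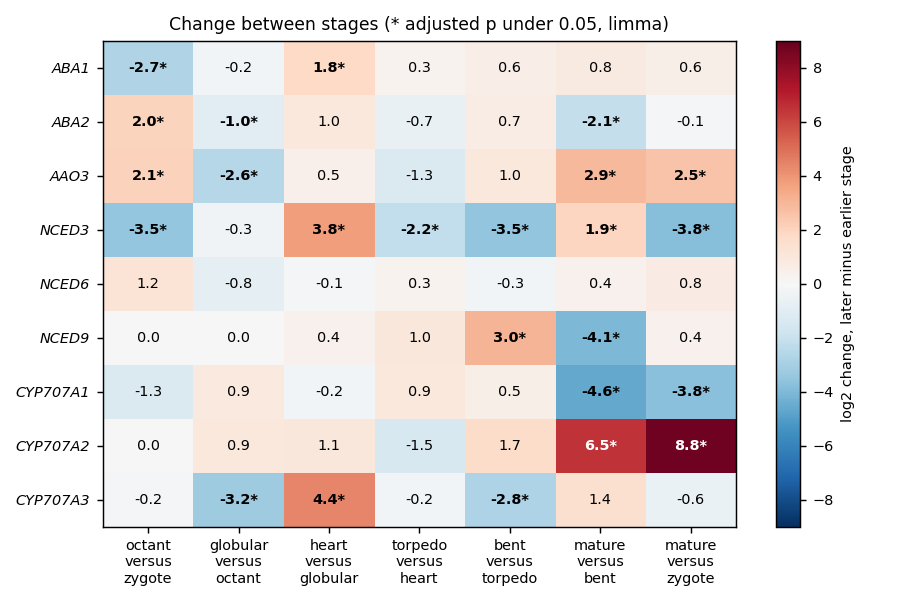
Log2 change of the 9 tested members in the 6 consecutive comparisons and in mature against zygote, later minus earlier stage, with red for higher and blue for lower in the later stage and an asterisk where the limma adjusted p was under 0.05. The rise of CYP707A2 at mature (log2 change 6.54 against bent) is the darkest consecutive change, and NCED3 carries an asterisk in 5 of the 6 consecutive comparisons. The asterisks of NCED9 were built in by the filter on low values.

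ABA1, the zeaxanthin epoxidase at the head of the pathway, lies on chromosome 5 at 26753469-26757402, minus strand, with 16 exons (build TAIR10.1). It was high in the zygote, low at octant and globular, and higher again later. Its level was 1118 and 864 normalised reads in the zygote libraries, 103 and 205 in the octant ones, 98.7 and 155 in the globular ones, and 515 and 378 at heart. Later it was 735 and 415 in torpedo, 783 and 882 in bent, and 2436 and 863 in mature embryos. In the order of stage means, mature overlapped zygote and zygote overlapped bent at the top, torpedo overlapped heart below them, and octant overlapped globular at the foot. ABA1 fell at octant against zygote (log2 change -2.72, SE 0.50, adjusted p = 0.000326), and the 773 genes that fell further were 4.12% of those tested. It rose at heart against globular (log2 change 1.80, SE 0.50, adjusted p = 0.0120), a call lost with median centring (adjusted p = 0.178), with upper-quartile scaling (0.102), with both count-based tests (0.112 and 0.156) and without the first globular (0.0853) or the first heart library (0.0902). The mature replicates differed 2.82-fold, and mature against bent did not pass (log2 change 0.80, SE 0.50, adjusted p = 0.184) but did with median centring (log2 change 2.18, adjusted p = 0.00191).

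ABA2, the short-chain dehydrogenase that acts on xanthoxin, lies on chromosome 1 at 19489794-19491650, minus strand, with 2 exons. It was lowest at both ends of the series. Zygote libraries held 333 and 289 normalised reads, octant 1279.9 and 1232, globular 740.4 and 526, and heart 1449 and 1035. Torpedo embryos held 886 and 676, bent ones 1484 and 1019, and mature ones 354 and 222. Octant, bent and heart overlapped at the top, torpedo and globular overlapped in the middle, and zygote and mature overlapped at the bottom. ABA2 rose at octant against zygote (log2 change 2.004, SE 0.37, adjusted p = 0.000332) and fell at mature against bent (log2 change -2.12, SE 0.37, adjusted p = 0.000150). With median centring neither passed (log2 changes 0.86 and -0.74, adjusted p = 0.0637 and 0.0918), and with DESeq2 the first did not (0.0739). The fall at globular against octant (log2 change -1.01, SE 0.37, adjusted p = 0.0413) was lost in 11 of 23 settings, with adjusted p between 0.0515 and 0.691, among them leaving out the second globular library (0.219) or the first (0.135) or second octant (0.131), zygote (0.0529 and 0.0528) or torpedo library (0.0516 and 0.0515). Its exons share 470 bases, 39.7% of their length, with genes on the other strand, and reads of the 2 strands cannot be told apart. Of these, AT1G52330 was at 15.3 normalised reads or less in every library, and AT1G07803 was not analysed here.

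AAO3, the abscisic aldehyde oxidase of the last step, lies on chromosome 2 at 11601727-11608450, plus strand, with 11 exons. It had a peak at octant and another at mature. Zygote libraries held 36.8 and 59.0 normalised reads, octant 211 and 205, and globular 52.6 and 17.8. Heart libraries held 48.3 and 41.0, torpedo 13.1 and 19.5, bent 30.3 and 41.4, and mature 327 and 259. Mature and octant stood apart from each other and from all other stages, while the neighbours among the remaining 5 overlapped. AAO3 rose at octant against zygote (log2 change 2.06, SE 0.50, adjusted p = 0.00263), a call lost with median centring (0.129) and with DESeq2 (0.145). It fell at globular against octant (log2 change -2.59, SE 0.50, adjusted p = 0.000912), with a change of -1.90 without the second globular library and -3.28 without the first. It rose at mature against bent (log2 change 2.90, SE 0.50, adjusted p = 0.000144) and stood above zygote at mature (log2 change 2.54, SE 0.50, adjusted p = 0.000371). The seed coat marker sum was also highest at octant (15058 and 15916, against 4341 and 2782 at zygote). Its part in the zygote and octant levels of ABA1, ABA2, AAO3 and NCED3 was not tested. At mature, where AAO3 was highest, that sum was 4.69 and 4.89. The exons of AAO3 share 749 bases, 13.8% of their length, with AT2G27160 on the other strand, which was at 0 in all 14 libraries.

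NCED3 lies on chromosome 3 at 4831286-4834015, minus strand, and like the other NCED members it is a single-exon gene. It was high in the zygote and again at heart, low at octant and globular, intermediate at torpedo, almost absent at bent and low at mature. Zygote libraries held 260 and 214 normalised reads, octant 15.5 and 20.3, and globular 16.5 and 11.5. Heart libraries held 175 and 325, torpedo 59.0 and 39.6, bent 1.12 and 0, and mature 10.95 and 15.7. Heart and zygote overlapped at the top, torpedo stood alone, octant, globular and mature followed with overlapping neighbours, and bent was lowest. NCED3 fell at octant against zygote (log2 change -3.46, SE 0.47, adjusted p = 3.30e-05), rose at heart against globular (log2 change 3.77, SE 0.47, adjusted p = 6.22e-05) and fell at torpedo against heart (log2 change -2.21, SE 0.47, adjusted p = 0.00346). The rise at heart was exceeded by 176 of 18744 tested genes (0.939%).

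At bent only 1 NCED3 read was found in the 2 libraries together, against 79 at torpedo and 23 at mature. The fall at bent against torpedo passed the test (adjusted p = 9.79e-05), with a ratio of pooled reads of 0.0156 (95% counting interval 0.000391 to 0.0897). The rise at mature against bent passed as well (adjusted p = 0.00242), with a ratio of 20.7 (3.36 to 852). Fitted changes of -3.53 and 1.92 depend on the added constant when a stage has so few reads. Over the whole span NCED3 was lower at mature than at zygote (log2 change -3.81, SE 0.47, adjusted p = 4.45e-06). All 6 NCED3 calls were kept in the 23 alternative settings.

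NCED9, on chromosome 1 at 29490705-29492875, minus strand, was found mainly at the bent stage. No read was found at zygote, octant or globular, which allows 1.75, 1.73 and 2.75 normalised reads at those stages. Heart libraries held 3.02 and 0, torpedo 9.84 and 4.54, bent 74.2 and 96.1 (124 reads), and mature 1.56 and 0.978 (2 reads). Bent stood apart from every other stage, and torpedo from heart, while heart and mature overlapped. The fitted log2 change of NCED9 was 3.02 (SE 0.40) at bent against torpedo. At mature against bent the ratio of its pooled reads was 0.0145 (95% counting interval 0.00174 to 0.0535). Since NCED9 entered the test through the bent libraries alone, both calls were built in and no p-value is given for them. For the same reason it was not tested without either bent library. At bent the endosperm marker sum was 745 and 971, of which EPR1 supplied 721 and 955 while FWA, IKU2, MINI3 and HDG3 were at 0, and the part of endosperm RNA in the NCED9 level was not tested.

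NCED5 (chromosome 1, 10571310-10573365, plus strand) and NCED6 (chromosome 3, 8761419-8763303, plus strand) were near the limit of detection throughout. NCED5 had 0 to 10.11 normalised reads per library and 2 to 9 reads per stage. NCED6 had 0 to 13.2 per library, with 19 reads at octant (17 and 2 in its libraries) and 2 to 8 at the other stages. The ratio of NCED6 reads at octant against zygote was 9.35 (95% counting interval 2.26 to 82.8), but the comparison of libraries did not pass (adjusted p = 0.132).

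Divided by exon length, the 5 NCED genes in the table, NCED2 included, could be set beside each other. Their summed level per kilobase was 97.1 and 81.3 normalised reads in the zygote, 15.2 and 9.81 in octant, 10.5 and 8.91 in globular, and 70.2 and 120.5 in heart libraries. Torpedo libraries had 35.9 and 21.2, bent ones 48.4 and 47.7, and mature ones 13.9 and 11.3. The family sum was thus highest at zygote and heart, and bent lay above both its neighbours in both libraries. NCED3 supplied 98.1% and 96.3% of the sum at zygote, 91.5% and 98.9% at heart, and 60.3% and 68.4% at torpedo. At bent, NCED9 supplied 70.6% and 92.7% and NCED3 0.851% and 0%. The gene that supplied most of the family at bent was thus not the one that did so at zygote, heart and torpedo. At mature no NCED gene dominated, with NCED3 at 28.8% and 50.9% and NCED2 at 42.2% and 18.2% of a small sum. Per kilobase, ABA2 stood well above the whole NCED family at heart (1224 and 874, against 70.2 and 120.5) and at bent (1254 and 861, against 48.4 and 47.7). Amplified RNA need not cover transcripts evenly, so levels per kilobase are approximate.

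**Figure D3:**
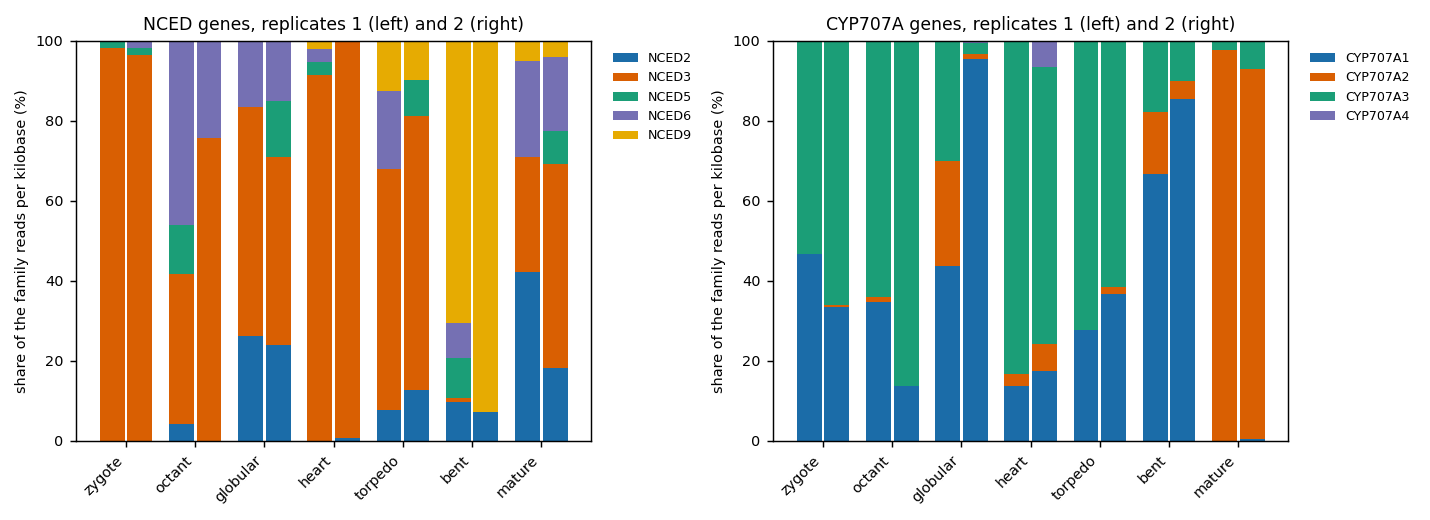
Share (%) of the family's normalised reads per kilobase of exon that each NCED gene (left) and each CYP707A gene (right) supplied in each library, replicate 1 left and replicate 2 right within a stage, from zygote to mature. NCED3 filled most of the NCED bars at zygote and heart and NCED9 those at bent, and CYP707A2 filled 97.8% and 92.5% of the CYP707A bars at mature.

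The CYP707A gene with the largest share of its family also changed between stages. At zygote, though, CYP707A1 (46.6% and 33.3%) stood beside CYP707A3 (53.4% and 66.0%). The letters just before the start sites of the 3 breakdown genes and NCED9 are shown first. The breakdown genes were taken because they followed different courses over the stages, and NCED9 because it was found mainly at 1 of them. Each line gives the 250 bases upstream of the annotated start in the RefSeq assembly TAIR10.1, 5′ to 3′ on the gene's strand, with matches to CACGTG (the G-box, which holds ACGTG on both strands) and to CATGCA on either strand (the RY core) in capitals. The windows are chr4:10521009-10521258 (plus strand) for CYP707A1, chr2:12499724-12499973 (minus) for CYP707A2, chr5:18371022-18371271 (minus) for CYP707A3 and chr1:29492876-29493125 (minus) for NCED9.
CYP707A1: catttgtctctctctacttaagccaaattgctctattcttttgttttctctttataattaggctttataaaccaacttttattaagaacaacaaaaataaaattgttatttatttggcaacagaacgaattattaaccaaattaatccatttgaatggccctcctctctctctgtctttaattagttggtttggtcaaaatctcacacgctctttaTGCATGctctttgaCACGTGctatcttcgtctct
CYP707A2: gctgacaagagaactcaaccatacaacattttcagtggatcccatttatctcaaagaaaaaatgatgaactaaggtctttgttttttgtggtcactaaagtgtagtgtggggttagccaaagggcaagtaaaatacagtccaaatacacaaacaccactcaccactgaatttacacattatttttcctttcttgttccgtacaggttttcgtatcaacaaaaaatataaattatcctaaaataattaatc
CYP707A3: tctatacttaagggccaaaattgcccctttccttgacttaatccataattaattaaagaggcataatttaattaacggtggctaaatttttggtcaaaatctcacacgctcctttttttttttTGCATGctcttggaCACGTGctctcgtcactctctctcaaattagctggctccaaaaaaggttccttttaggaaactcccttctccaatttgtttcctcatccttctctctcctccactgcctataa
NCED9: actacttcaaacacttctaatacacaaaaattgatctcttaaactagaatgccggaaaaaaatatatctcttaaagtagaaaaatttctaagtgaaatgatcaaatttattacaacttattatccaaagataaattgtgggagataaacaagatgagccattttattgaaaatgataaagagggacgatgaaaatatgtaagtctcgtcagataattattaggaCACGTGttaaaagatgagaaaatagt

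ACGTG is the core of the element bound by abscisic acid response factors, and CATGCA is the core bound by B3 regulators of seed maturation such as ABI3 and FUS3. Of the 10 members, 4 held ACGTG in this window (ABA1, NCED9, CYP707A1 and CYP707A3), against 22.9% of 27431 windows of the same length. CATGCA was found in 2 members (CYP707A1 and CYP707A3), against 8.44% of windows, and CACGTG in 3 (NCED9, CYP707A1 and CYP707A3), against 6.49%. CYP707A1 and CYP707A3 held both ACGTG and CATGCA, as did 2.22% of windows, and the CYP707A2 window held none of these letters. In CYP707A1 the G-box began 20 and the RY core 34 bases before the start, and in CYP707A3 they began 113 and 127 bases before it. Upstream of that pair both windows carry the same run of 23 bases, tttggtcaaaatctcacacgctc, beginning 61 bases before the start of CYP707A1 and 162 before that of CYP707A3. No other run of 12 or more bases was shared between the windows of any 2 members. These are matches of letters, and binding was not measured.

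CYP707A1, on chromosome 4 at 10521259-10523961, plus strand, with 7 exons, was present from zygote to bent and all but lost at mature. Zygotes held 92.1 and 66.4 normalised reads, octant embryos 43.3 and 20.3, globular ones 9.87 and 277, and heart ones 89.1 and 26.0. Torpedo libraries held 55.8 and 166, bent 118 and 174, and mature 0 and 4.89. From bent down to octant every neighbour in the order of stage means overlapped, and the 2 globular libraries stood at the bottom and the top of that range. Only mature lay below all other stages in both libraries. CYP707A1 fell at mature against bent (log2 change -4.63, SE 1.03, adjusted p = 0.00123) and stood below zygote at mature (log2 change -3.79, SE 1.03, adjusted p = 0.00452), both in every setting tried. The SE was the largest among the 9 tested members.

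CYP707A3, on chromosome 5 at 18368532-18371021, minus strand, with 6 exons, dipped at globular and had its highest means at heart and torpedo. Zygotes held 102 and 127 normalised reads, octant embryos 77.4 and 124, and globular ones 6.58 and 7.64. Heart libraries held 519 and 99.1, torpedo 141 and 269, bent 30.3 and 19.9, and mature 67.3 and 80.2. Heart overlapped torpedo, zygote and octant, and its second library (99.1) lay below both zygote ones. Torpedo lay above zygote in both libraries. Zygote overlapped octant and octant overlapped mature, while bent and globular each stood apart. CYP707A3 fell at globular against octant (log2 change -3.20, SE 0.63, adjusted p = 0.00103) and rose at heart against globular (log2 change 4.39, SE 0.63, adjusted p = 0.000187), a rise that 67 of 18744 tested genes exceeded (0.357%). The seed coat marker sum was lower at globular too (388 and 303, against 15058 and 15916 at octant), and its part in the CYP707A3 fall was not tested. At heart, where the CYP707A3 mean was highest, that sum was 208 and 289. The endosperm marker sum at heart was 861 and 919. HDG3 (411 and 410) and MYB118 (314 and 346) were the 2 of its 9 genes with their highest mean at heart. The part of endosperm RNA in the heart levels of CYP707A3 and NCED3 was not tested. The heart libraries differed 5.24-fold, and the rise was 3.22 without the first and 5.56 without the second. CYP707A3 fell at bent against torpedo (log2 change -2.80, SE 0.63, adjusted p = 0.00442), a call lost without the second torpedo library. Mature lay above bent in both libraries. That difference did not pass (log2 change 1.44, SE 0.63, adjusted p = 0.0613) but did with median centring (log2 change 2.82, adjusted p = 0.000595).

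CYP707A2, on chromosome 2 at 12494826-12499723, minus strand, with 9 exons, was found mainly in the mature embryo. Zygotes held 0 and 1.47 normalised reads (1 read), octant embryos 1.55 and 0, globular ones 6.58 and 3.82, and heart ones 19.6 and 11.01. Torpedo libraries held 0 and 7.79, bent 30.3 and 9.94, and mature 3396 and 1213. Mature lay above all other stages in both libraries, although its replicates differed 2.80-fold. CYP707A2 rose at mature against bent (log2 change 6.54, SE 0.63, adjusted p = 7.62e-07), with stage means of 2305 ± 1544 at mature and 20.1 ± 14.4 at bent (SD, n = 2 each), and 152 of 18744 genes rose further (0.811%). The change was 5.80 without the first mature library, 7.28 without the second, 7.19 without the first bent library and 5.89 without the second. Against zygote the rise also passed (adjusted p = 2.09e-08), with 3411 reads at mature against 1 at zygote and a ratio of 3510 (95% counting interval 629 to 138700).

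Per kilobase, the 4 CYP707A genes in the table, CYP707A4 included, summed to 93.4 and 94.1 normalised reads in zygote, 59.1 and 70.2 in octant, 10.7 and 137 in globular, and 305 and 70.1 in heart libraries. Torpedo libraries had 95.4 and 214, bent ones 83.7 and 96.3, and mature ones 1491 and 563. Only at mature did both libraries exceed those of every other stage. CYP707A3 supplied 83.4% and 69.2% of the sum at heart and 72.4% and 61.6% at torpedo, CYP707A1 66.7% and 85.5% at bent, and CYP707A2 97.8% and 92.5% at mature. CYP707A4 had 0 to 8.01 normalised reads per library. At mature the breakdown family per kilobase stood above the NCED family (1491 and 563, against 13.9 and 11.3), while at zygote the 2 families were of similar size (93.4 and 94.1, against 97.1 and 81.3).

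Around these genes, a list of 10 genes of carotenoid metabolism was measured, chosen among the other steps between isoprenoids and neoxanthin. NPQ1 is not a supply step, since its enzyme works in the opposite direction to ABA1. All 10 differed among stages, as did 97.1% of all tested genes. Of the 10, 7 had their highest mean at torpedo, namely DXS, PDS3, ZDS, LYC, BETA-OHASE1, NPQ1 and ABA4. DXS, which opens the plastid isoprenoid pathway, held 4917 and 4275 normalised reads at torpedo against 1727 and 1276 at heart, a difference that did not pass. At torpedo against heart 0 of the 7 rose (adjusted p = 0.0629 to 0.770, where 16.3% of all genes rose), and at bent against torpedo BETA-OHASE1 was the one that fell (log2 change -2.20, adjusted p = 0.00596, where 22% of genes fell). PSY, the phytoene synthase often taken as the gate to carotenoids, was highest in the zygote (1665 and 2600). At octant against zygote 7 rose and 2 fell, where 44.7% of all genes rose and 13.1% fell, and after median centring 5 rose (21.2% of genes) and 3 fell (29.4%). The median log2 change was 2.16, against 0.92 over all genes. The median of the seed coat markers moved at the same steps, with a log2 change of 2.07 at octant against zygote and -5.44 at globular against octant. INO alone of these markers was not higher at octant. The part of seed coat RNA in the carotenoid gene levels was not tested. PSY was one of the genes that fell then, to 89.0 and 119 at octant, against those zygote levels (log2 change -4.28, SE 0.55, adjusted p = 2.36e-05). At globular against octant 0 rose and 5 fell, where 7.02% of genes rose and 31.5% fell, and after centring 1 rose (17.3%) and 0 fell (15.2%). At heart against globular 5 rose and 0 fell, where 27.7% rose and 6.9% fell, and after centring 2 rose (9.83%) and 0 fell (17.2%). At mature against bent 2 rose and 7 fell, where 18.2% rose and 40.1% fell, and after centring 3 rose (43.7%) and 3 fell (21.9%), with a median log2 change before centring of -1.31 against -0.57 over all genes. BETA-OHASE2, a carotene hydroxylase, held 798 and 532 at mature, against 0 and 3.31 at bent. Of the other libraries only 1, from the zygote, reached 10 (10.3). The gene thus met the filter through mature, and a difference there was built in. No p-value is given for it. Nothing is read from its place among the 10 that differed or among the genes that rose at mature, before or after centring. DXS fell at mature to 6.26 and 49.9, against 3983 and 1523 at bent (log2 change -6.71, SE 0.62, adjusted p = 5.18e-07).

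Of the other enzymes near the pathway, AAO1 was not analysed here and CYP707A4 was too low to be tested. The 4 others differed among stages, as did 97.1% of all tested genes. ABA3, the sulfurase that activates the cofactor of aldehyde oxidases, rose at mature to 440 and 297, against 131 and 103 at bent (log2 change 1.60, SE 0.60, adjusted p = 0.0320). AAO4, a further aldehyde oxidase, was highest in the zygote (625 and 494) and fell at mature to 4.69 and 2.94, against 80.9 and 41.4 at bent (log2 change -3.00, SE 0.48, adjusted p = 7.60e-05). AAO2 was highest at torpedo (82.0 and 89.6), and NCED2 reached no more than 14.1 in any library.

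Abscisic acid is also stored as a glucose ester. UGT71C5, a glucosyltransferase that forms the ester, rose at mature to 249 and 280 normalised reads, against 16.9 and 34.8 at bent (log2 change 3.23, SE 0.50, adjusted p = 6.01e-05). Its highest stage was the zygote (270 and 333), and mature against zygote did not pass (log2 change -0.18, adjusted p = 0.777). BGLU18, a glucosidase that releases the hormone from it, held 3734 and 5189 at octant, against 896 and 695 at zygote, and fell at globular to 32.9 and 21.6, against those octant levels (log2 change -7.16, SE 0.88, adjusted p = 2.26e-05). The seed coat marker BAN had the same order of stages there, with 349 and 258 at globular, against 12878 and 13519.5 at octant, and the part of seed coat RNA in the BGLU18 level was not tested. UGT71B6 did not pass the F test (adjusted p = 0.480), its exons lie wholly within a gene on the other strand, and BGLU33 was too low to be tested.

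All 5 transporters differed among stages, as did 97.1% of all tested genes. The exporter ABCG25 was lowest at mature (6.26 and 7.83 normalised reads), against 2522 and 1915 in the zygote, its highest stage, and the importer NRT1.2 fell at octant to 350 and 601, against 4041 and 4192 in the zygote (log2 change -3.15, SE 0.53, adjusted p = 0.000185). At mature against zygote 1 of the 5 rose and 4 fell, where 29.6% of all genes rose and 35.6% fell, and after median centring the counts were again 1 (35.3% of genes) and 4 (31%). The median log2 change was -4.08, against -0.16 over all genes. The seed coat marker sum was also lower at mature (4.69 and 4.89, against 4341 and 2782 at zygote), and its part in these falls was not tested. The one that rose was ABCG30, an importer (419 and 723 at mature, against 237 and 221 at zygote, log2 change 1.25, SE 0.37, adjusted p = 0.00839).

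Genes that respond to the hormone or relay its signal, 9 in the list, all differed among stages, as did 97.1% of all tested genes. At mature against bent 5 rose and 2 fell, where 18.2% of all genes rose and 40.1% fell, and after median centring 6 rose (43.7%) and 0 fell (21.9%). The median log2 change before centring was 3.34, against -0.57 over all genes. RAB18, a dehydrin, stood at 631871 and 382216 normalised reads at mature, against 2038 and 2592 at bent (log2 change 7.74, SE 0.39, adjusted p = 2.30e-09). EM6, a late embryogenesis abundant protein, stood at 408115 and 315344 at mature, against 2.25 and 16.6 at bent (log2 change 14.95, SE 0.63, adjusted p = 6.32e-10). EM1, RD29B and the bZIP factor ABI5 were the others that rose, and ABI5 held 2129 and 1583 at mature, against 169 and 187 at bent. RD29B had already risen at bent, to 642 and 524, against 0 and 7.79 at torpedo (log2 change 6.41, SE 0.55, adjusted p = 2.13e-06). The phosphatase HAI1 and the B3 factor ABI3 were lower at mature, with 1244 and 1234 for HAI1 against 10867 and 3222 at bent, but neither fall was kept after median centring (adjusted p = 0.102 and 0.105). Early on, at octant against zygote, 3 of the 9 rose and 5 fell, where 44.7% of all genes rose and 13.1% fell. After median centring 1 rose (21.2%) and 6 fell (29.4%). The 3 higher at octant were RD29B, ABI5 and HAI1 (3690 and 4304, against 1472 and 1536 in the zygote). EM1 and EM6 both fell, EM1 to 0 and 15.8 at octant, against 741 and 1137 in the zygote (log2 change -6.70, SE 0.71, adjusted p = 6.40e-06). Of the genes named from these lists, PSY, ZDS, LYC, BETA-OHASE2, NPQ1, AAO2, RAB18 and ABI1 overlap a gene on the other strand over 1.01% to 18.1% of their exon bases, so their reads may include those of a neighbour.

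**Figure D4:**
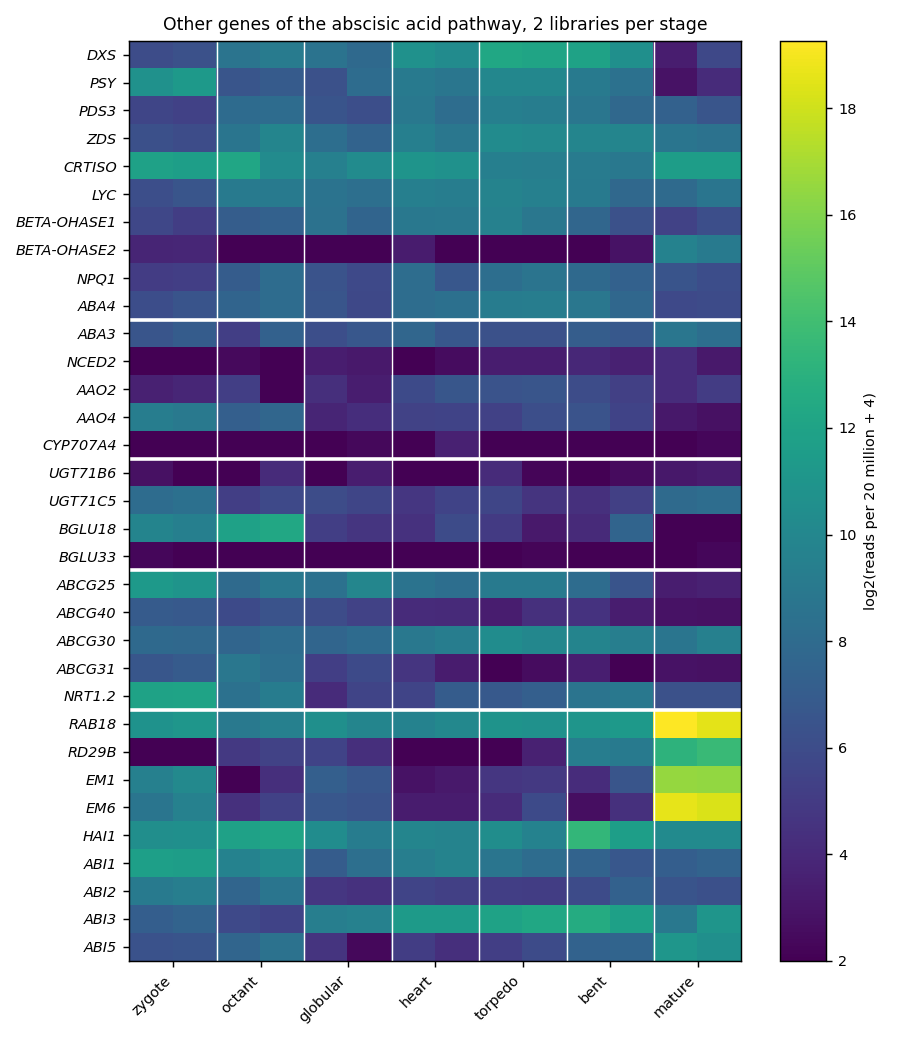
Log2 of normalised reads plus 4 (colour) for 33 other genes of abscisic acid metabolism, transport and response, with 2 columns per stage (replicates 1 and 2) from zygote to mature and white lines between the lists. RAB18, EM1 and EM6 are brightest at mature, and PSY, ABCG25 and NRT1.2 are brightest in the zygote.

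For the 7 members that differed among stages and had a stage mean of 100 or more, the 3 genes with the most similar course over the 14 libraries were found by Pearson's r of log2 values. CYP707A2 was most like AT1G12130 (r = 0.969), AT5G16960 (0.965) and AT1G47980 (0.963), all highest at mature. ABA1 was most like AT5G07710 (0.934), EBP (0.928) and MAPKKK13 (0.901), also highest at mature. AAO3 had AT5G27460 (0.936), AT5G56260 (0.934) and the amino acid transporter gene LHT1 (0.933) nearest to it. ABA2 was most like QUA1 (0.950), AT5G58930 (0.932) and AT1G16800 (0.924). NCED3 had the kinase gene MPK15 (0.916), AT1G53282 (0.899) and FBS1 (0.898) nearest to it, all highest in the zygote. CYP707A3 was most like the kinase gene MKK9 (0.920), the phytochrome gene PHYA (0.901) and GCH (0.867), and CYP707A1 was most like AHBP-1B (0.917), AT4G34750 (0.909) and AT4G33140 (0.902). These r values describe 14 libraries, 2 per stage and of unequal depth, and no member was among the 3 nearest of another.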

How the data were processed

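RNA-seq of 14 whole-embryo libraries was analysed from 1 deposited table. Per the submitters' processing notes, CASAVA, Trimmomatic, FastQC, STAR, HTSeq and DESeq2 were used with the build TAIR10, but the role of each tool is not stated there. The deposited signal of a gene is its read count scaled by the authors so that each library sums to 20000000 over all 25517 entries. The 103 entries without a gene identifier, 9.15% to 26.3% of reads, stayed out of the tests but are part of that total. Every value (100%) was a whole multiple of 1 read within 0.001 reads, so reads were recovered. No column was left unused (0). Depth per library was 6078186 to 30803336 reads.

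A gene was tested if 2 or more libraries had a value of at least 10, which 18744 genes met and 6670 did not. A limma 3.58.1 model (R 4.3.3) of log2(value + 4) had a term for stage alone, a trend in the prior variance, 7 residual and 7.81 prior degrees of freedom, and Benjamini-Hochberg adjustment over all tested genes at 0.05. A log2 change is on that scale and understates changes of low genes. All stages share 1 estimate of spread, since an exact test of 2 against 2 libraries cannot go below p = 0.333, and p-values measure the spread between replicate libraries as deposited. Counting intervals (exact, 95%) and floors (3 reads) cover counting error only. The fit was also run on simulated counts with known changes at mature and a single spread set for all genes. That run does not measure how the fit does at the replicate spread of these data.

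Other settings tried were a pseudocount of 1 or 16, testing every gene, a minimum of 50, upper-quartile scaling, median centring, the replicate number as a block, edgeR 4.0.16 (quasi-likelihood) and DESeq2 1.42.0 on the recovered reads, and each library left out. edgeR called 3202 to 12255 genes per comparison and limma 4765 to 12228. All 10 members are described. Genes of the other lists were named where the F test passed, and the 3 most alike genes were taken by Pearson's r. The members and lists were chosen with earlier results of these data known. Positions and upstream windows are from RefSeq, assembly TAIR10.1, whose nuclear chromosomes are those of TAIR10. No member shared a 50-base word with another gene.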

Additional observations from a re-analysis of the deposited data

How the results depend on the processing

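Of the 24 changes called in single members, 18 kept their direction and their side of the threshold in every setting in which they could be tested, 6 were lost in some setting, and 0 turned. NCED9, whose built-in calls are among the 18, could not be tested without either bent library. The number of members called at torpedo against heart, 1 in the report, was 2 with no filter, with edgeR and with DESeq2, 4 with median centring, and 1 to 2 when libraries were left out. At bent against torpedo, 3 in the report, it was 6 with edgeR, DESeq2 and median centring, 5 with upper-quartile scaling, and 2 to 4 when libraries were left out. The cause was not tested. Over all genes, 5149 were called at bent against torpedo, against 3202 with edgeR, 3368 with upper-quartile scaling, 2461 without the second bent library, 2577 without the first torpedo library and 3312 without the second. Without the second octant library 4207 genes were called at globular against octant (7210 with it), without the first or second heart library 3855 or 4317 at heart against globular (6476), and without 1 heart or torpedo library 2486 to 2843 at torpedo against heart (4765). The replicate numbers did not pair the libraries, since deviations of same-numbered libraries correlated by -0.11 to 0.30 (median -0.01) over 21 pairs of stages, above 0.1 in 3. With the number as a block all 24 calls were kept, 4 members were called at heart against globular in place of 3, and 10854 genes were called at octant against zygote in place of 10839. Depth limits NCED5, NCED6 and CYP707A4, and stages at which NCED3, NCED9 or CYP707A2 had 3 reads or fewer.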
